A study of Sus scrofa with 40 samples.

Results

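Interferon-stimulated genes were followed through warm ischemia and cold storage of pig kidneys, in samples of cortex (C) and of the corticomedullary junction (CMJ). The gene set holds 44 symbols of well-known interferon targets, and a symbol counted as present when a non-control spot of the array carried it as gene name or in brackets in its description. By this rule 33 of the 44 genes were found, on 67 of 43803 spots, which make up 40 of the 35955 identifiers of the array. Of these 33 genes, 32 were well above background on at least 20 of the 40 arrays and 29 on all 40, whereas the ISG20 identifier found by the rule (NM_001005351; ISG20 is an antiviral exonuclease) was above it on 0 arrays.

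All kidneys came from Large White pigs of 3 months. Control kidneys (Ctl, 5) were sampled and frozen directly after removal, and WI kidneys (5) stayed clamped for 60 min at 37 °C before sampling. A further 5 kidneys underwent the same warm ischemia, were flushed with cold University of Wisconsin solution and were kept at 4 °C, with samples taken at 6 h (WI+CS6h) and from the same organs at 24 h (WI+CS24h). Each of the 8 groups of tissue and condition holds 5 arrays, so 40 arrays stand for 15 kidneys. All groups share the breed and age, and the Ctl group had no ischemia, so a comparison of cold storage with Ctl spans the warm ischemia as well.

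Interferons are cytokines that cells release on sensing viral or damaged nucleic acid. Type I interferons bind a receptor present on nearly all cells, and the complex of STAT proteins and IRF9 that forms behind it switches on a shared set of target genes. Those targets include enzymes that block viral replication (OAS, MX, IFIT and viperin families), the ubiquitin-like protein ISG15, guanylate-binding proteins, sensors of RNA and DNA, and genes of antigen presentation. In kidney, both leukocytes and parenchymal cells can express them.

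Between 57.01% and 69.91% of the spots of an array were well above background, and 10 to 85 spots per array were marked as outliers. The 40 arrays lay on 10 slides of 4, each slide with several groups. Values are log2 intensities after quantile normalization, each gene is represented by its brightest identifier, and a gene was called in a comparison at an adjusted p under 0.05 with a log2 fold change of at least 0.5 in size (limma, Benjamini-Hochberg over all identifiers). In the sources used here the labels number the samples 1 to 5 in each group, and it is not stated that a number marks the same kidney in cortex and CMJ. With 5 arrays per group the number of arrays limits the precision, and the p-values measure the spread between these samples.

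The MX1 probes are shown first because MX1, the gene of a dynamin-like antiviral GTPase, had the largest residual SD of the set and its identifier (NM_214061) depended on which probe was read. Both sequences are 60-base array probes as the deposited files give them, 5′ to 3′, starting at positions 1160 and 1934 of the transcript. Capitals mark copies of the hexamer CTGCAG, which reads the same on both strands and was picked after the probe was seen.

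A_72_P444250: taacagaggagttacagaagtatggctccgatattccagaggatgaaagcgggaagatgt

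A_72_P487406: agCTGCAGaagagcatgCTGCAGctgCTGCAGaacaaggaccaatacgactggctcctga

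The second probe held 3 copies of CTGCAG and was the only one of 43603 distinct probes with 3 or more, while 2.42% of them held at least 1. It was marked as an outlier, and so missing, on 9 arrays, and was well above background on 24. The other 4 MX1 probes had values on all 40 arrays, and each correlated with another of them at r of at least 0.985 over the 40 arrays. For A_72_P487406 r was at most 0.69, without the 9 arrays on which it was missing. Those 9 read 10.37 to 12.14 on the probe A_72_P440896, in the upper part of its range, so these correlations rest on different arrays. MX1 levels below are therefore those of the brightest probe, A_72_P440896, unless the identifier is named.

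Part of the set was lower after cold storage, and no gene was called higher by its brightest identifier. A second identifier of SP110 was called higher, as given below. Over 8 comparisons of a cold-stored group with Ctl or WI of the same tissue, 7 of the 33 genes were called at least once (GBP2, MX2, OAS1, OAS2, TRIM21, IFITM1 and IRF9), and all 22 calls were lower after cold storage, by 1.52-fold to 3.05-fold. In the same 8 comparisons 1.2% to 4.02% of all identifiers were called and 0.568% to 2.39% were called lower. In 16 of the 22 the 5 cold-stored arrays lay below all 5 arrays of the other group, a description of pairs chosen because they passed the test. On every slide that held both groups the cold-stored arrays were lower in 19 of the 22. With slide as a further term in the fit, 8 of the 22 remained called: GBP2 in 4 comparisons, MX2 in 2, OAS2 in 1 and IFITM1 in 1. With normexp background correction 8 remained: GBP2 in 6, OAS1 in 1 and IFITM1 in 1. Warm ischemia alone and the step from 6 h to 24 h brought 0 calls in either tissue.

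**Figure D1:**
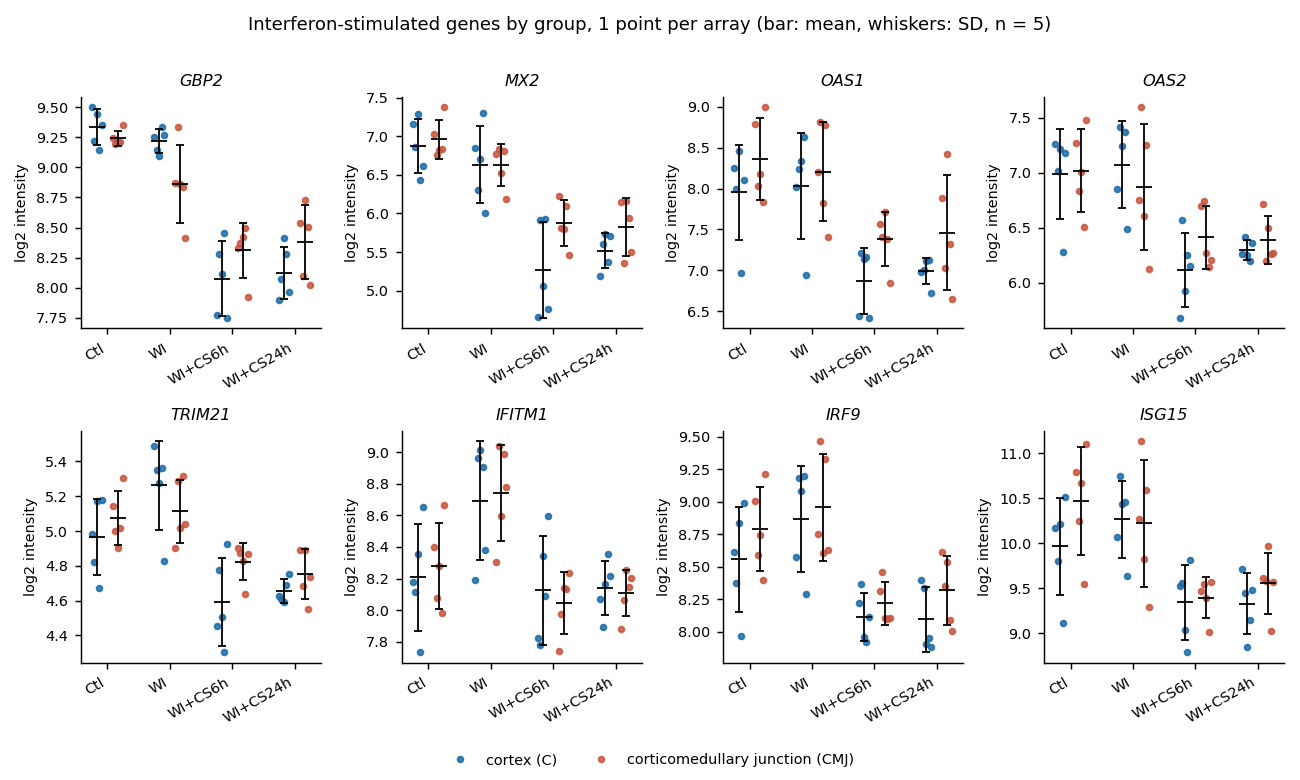
Log2 intensity (y axis) of the 7 called genes and ISG15 in the 4 conditions (x axis), with cortex in blue and CMJ in red; each point is 1 of 5 arrays, the bar is the mean and the whiskers are the SD. GBP2 in cortex lies between 9.10 and 9.50 in Ctl and WI and between 7.75 and 8.45 in the cold-stored groups.

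GBP2, an interferon-inducible guanylate-binding GTPase of cell-autonomous defence (NM_001128474), changed most steadily. In cortex its log2 intensity was 9.50, 9.22, 9.45, 9.15 and 9.35 in Ctl arrays 1 to 5 and 9.25, 9.14, 9.10, 9.34 and 9.27 in WI. It was 7.77, 8.28, 8.11, 8.45 and 7.75 at 6 h and 7.90, 8.07, 8.41, 8.28 and 7.96 at 24 h. The cold-stored arrays and the others did not overlap, and the fall was larger than the spread within any group.

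The log2 fold change of GBP2 against Ctl was -1.26 (SE 0.13, adjusted p = 4.8e-05) at 6 h and -1.21 at 24 h, and against WI it was -1.15 and -1.09. In CMJ, GBP2 stood at 9.20 to 9.35 in Ctl, at 8.41 to 9.34 in WI, at 7.92 to 8.50 at 6 h and at 8.02 to 8.73 at 24 h. The log2 fold changes of -0.93 and -0.87 against Ctl were called (adjusted p = 0.0018 and 0.0029). WI-CMJ array 5, at 8.41, overlapped the cold-stored arrays, and GBP2 was not called against WI in CMJ (-0.55 and -0.48, adjusted p = 0.056 and 0.099). With slide as a term, GBP2 stayed at -1.31 and -1.27 against Ctl in cortex, and 2 calls were lost: WI+CS6h-C against WI-C (-1.09, adjusted p = 0.11) and WI+CS24h-CMJ against Ctl-CMJ (-0.86, adjusted p = 0.071). The 2 GBP2 probes share 56 of 60 bases, so they are close to 1 measurement.

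MX2, the second MX GTPase (NM_001097416), had the largest called fold change, in WI+CS6h-C against Ctl-C. Its log2 intensity in Ctl-C was 7.15, 6.87, 7.29, 6.44 and 6.62, and in WI+CS6h-C it was 4.66, 5.91, 5.06, 5.93 and 4.76, with a log2 fold change of -1.61 (SE 0.27, adjusted p = 0.0026). Arrays 1, 3 and 5 after 6 h were lower than arrays 2 and 4. At 24 h the 5 cortex arrays were closer together, at 5.20, 5.60, 5.73, 5.36 and 5.71 (log2 fold change -1.35, adjusted p = 0.010).

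In CMJ, MX2 was at 6.76 to 7.38 in Ctl, 6.19 to 6.84 in WI, 5.46 to 6.23 at 6 h and 5.36 to 6.16 at 24 h. It was called against Ctl at both times (-1.08 and -1.14) and against WI at both times (-0.75 and -0.81). The calls against WI were lost at 6 h without any 1 of WI-CMJ arrays 1 to 4 or WI+CS6h-CMJ arrays 2, 3 and 5 (adjusted p 0.057 to 0.073), and at 24 h without WI-CMJ array 2 or 4 (0.051 and 0.053). In cortex the comparison with WI was called at 6 h (-1.37, adjusted p = 0.013) and just missed at 24 h (-1.12, adjusted p = 0.0502). With normexp background correction the 7 MX2 changes shrank to between -0.50 and -0.28 (adjusted p 0.0019 to 0.027), and none kept the minimum fold change. With slide as a term 5 of the 7 were lost (adjusted p 0.085 to 0.45). Further MX2 identifiers moved the same way: AK232386 reached a log2 fold change of -1.96 and AK345001 of -2.08 in WI+CS6h-C against Ctl-C.

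OAS1 and OAS2 make the short oligoadenylates that activate RNase L, and both were called in cortex at 6 h. OAS2 (NM_001031796) had log2 intensities of 7.26, 7.02, 7.21, 6.28 and 7.18 in Ctl-C and 5.68, 6.57, 5.92, 6.25 and 6.15 in WI+CS6h-C. Only Ctl array 4 reached down into the cold-stored range. The log2 fold change was -0.88 against Ctl (SE 0.21, adjusted p = 0.020) and -0.96 against WI (adjusted p = 0.018). The call against Ctl was lost without array 1 or 3 of Ctl-C or of WI+CS6h-C (adjusted p 0.052 to 0.064), and that against WI without WI-C array 3 or 4 or WI+CS6h-C array 1 (0.055 to 0.059).

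OAS1 (AK230683) read 8.25, 7.99, 8.46, 6.97 and 8.10 in Ctl-C and 6.44, 7.21, 7.14, 7.16 and 6.42 in WI+CS6h-C. Its log2 fold change was -1.08 against Ctl (SE 0.30, adjusted p = 0.043) and -1.16 against WI (adjusted p = 0.046). The other OAS1 identifier, NM_214303, was not called in either comparison (-0.92, adjusted p = 0.25 against Ctl, and -1.08, adjusted p = 0.25 against WI). It averages 2 probes with means of 7.88 and 6.34. The brighter was marked as an outlier, and so missing, on 17 of 40 arrays, which limits this second reading. Here as well the low Ctl array was number 4, and WI-C array 5, at 6.94, was low too. Both OAS1 calls were lost when any 1 of 7 arrays was left out, with adjusted p between 0.062 and 0.13. These were WI+CS6h-C arrays 1, 3 and 5 for both, with Ctl-C arrays 1, 2, 3 and 5 for the call against Ctl and WI-C arrays 1 to 4 for that against WI. In CMJ the 5 OAS1 arrays at 6 h (6.85 to 7.71) lay below the lowest Ctl array (7.83), at a log2 fold change of -0.98 and an adjusted p of 0.12.

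TRIM21, an E3 ubiquitin ligase and cytosolic antibody receptor (NM_001163649), was called in cortex against WI. WI-C arrays read 5.49, 5.35, 5.28, 5.36 and 4.83 on the log2 scale, against 4.45, 4.77, 4.51, 4.30 and 4.92 at 6 h and 4.63, 4.61, 4.59, 4.69 and 4.75 at 24 h. The changes were small, with log2 fold changes of -0.67 (SE 0.14, adjusted p = 0.014) and -0.61 (adjusted p = 0.031). The 24 h call was lost without any 1 of 8 arrays, numbers 1 to 4 of WI-C and of WI+CS24h-C (adjusted p 0.051 to 0.081). It was also lost with the replicate number as a block (adjusted p = 0.064), and both TRIM21 calls with slide as a term (adjusted p = 0.39 at 6 h and 0.13 at 24 h). Both calls were lost as well with normexp background correction, with the log2 matrix the authors deposited and with the brightest TRIM21 probe. The smallest log2 fold change in any setting was -0.11 at 6 h and -0.12 at 24 h.

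IFITM1, a membrane protein that restricts viral entry (ENSSSCT00000035772), and IRF9, the DNA-binding part of the STAT complex (NM_001078670), were called in CMJ against WI and in no other comparison. IFITM1 in WI-CMJ was 8.30, 9.04, 8.60, 8.99 and 8.78, and at 6 h it was 7.74, 7.98, 8.14, 8.13 and 8.24. The groups did not overlap (log2 fold change -0.70, SE 0.15, adjusted p = 0.012), and the 24 h change was -0.63 (adjusted p = 0.021). The 24 h call was lost without WI-CMJ array 2, 4 or 5 or WI+CS24h-CMJ array 1 (adjusted p 0.051 to 0.059). Against Ctl-CMJ the log2 fold change of IFITM1 was 0.46 in WI (adjusted p = 0.16), -0.24 at 6 h (0.50) and -0.17 at 24 h (0.60), so the distance called was that from WI.

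IRF9 in WI-CMJ read 8.75, 9.46, 8.60, 9.33 and 8.63, with arrays 2 and 4 high, against 8.31, 8.46, 8.11, 8.10 and 8.11 at 6 h. Its log2 fold change was -0.74 (SE 0.19, adjusted p = 0.033), and it was lost without WI-CMJ array 2 or 4 or WI+CS6h-CMJ array 1, 3, 4 or 5 (adjusted p 0.058 to 0.085). It was also lost with the replicate number as a block (-0.74, adjusted p = 0.051), with slide as a term (-0.63, adjusted p = 0.24) and with normexp (-0.54, adjusted p = 0.053). At 24 h against WI, IRF9 had -0.64 (adjusted p = 0.065). In cortex against WI it had -0.75 at 6 h and -0.77 at 24 h (adjusted p = 0.059 and 0.067).

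The calls were set against the share of all identifiers called in the same comparison. In cortex at 6 h, 4 of the 33 genes were called against Ctl, where 4.02% of all identifiers were called and 2.39% were called lower. Against WI at 6 h 5 were called, where 1.93% of identifiers were called and 0.921% lower. At 24 h in cortex, 2 genes were called against Ctl (2.5% of identifiers, 1.46% lower) and 2 against WI (1.2%, 0.568% lower).

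In CMJ at 6 h, 2 genes were called against Ctl (3.19% of identifiers, 1.84% lower) and 3 against WI (2.78%, 1.41% lower). At 24 h, 2 were called against Ctl (3.65%, 2.3% lower) and 2 against WI (2.85%, 1.61% lower). Since 32 of the 33 genes were detected and many identifiers were dim, the share was also taken over identifiers well above background on at least 10 arrays. There 2 of 32 genes (6.25%) were called in WI+CS24h-CMJ against Ctl-CMJ where 6.34% of identifiers were, and 2 (6.25%) in WI+CS24h-C against Ctl-C where 4.56% were, so at 24 h the counts against Ctl were near the background. In cortex against WI, 7 of 32 (21.9%) were called at each time where 3.63% and 2.38% of identifiers were, with GBP1 and IRF9 added at both times. At 6 h against Ctl, 12.5% of the genes were called in cortex (7.51% of identifiers) and 15.6% in CMJ (5.52%). In CMJ against WI, 12.5% were called at 6 h (4.92% of identifiers) and 9.38% at 24 h (5.12%). No test was made of the list. With slide as a term the counts against WI-C were 0 and 1, where 7 and 118 of all 35939 identifiers were called.

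The cold-stored arrays lay wholly below the other group for 2 genes in each comparison with Ctl-C, at 6 h and 24 h (2.62% and 2.96% of all identifiers). Against WI-C they did for 4 genes at 6 h (1.33%) and 7 at 24 h (1.47%). In CMJ they did for 6 and 3 genes against Ctl (3.28% and 3.23%) and for 4 and 3 genes against WI (2.68% and 2.23%).

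Most of the set sat lower after cold storage, also where no call was made. The number of genes lower than Ctl was 25 of 33 for WI+CS6h-C, 27 for WI+CS24h-C, 30 for WI+CS6h-CMJ and 29 for WI+CS24h-CMJ. The median log2 fold changes in that order were -0.24, -0.23, -0.44 and -0.42, while the median over all identifiers lay between -0.01 and 0.05. Without Ctl-CMJ array 5 the CMJ medians were -0.20 and -0.25 and without array 4 -0.59 and -0.53, and at 24 h in cortex the median ran from -0.36 without Ctl-C array 4 to -0.16 without array 5. Against WI, in the same order, the medians were -0.56, -0.52, -0.46 and -0.37. An unadjusted p under 0.05 was reached by 12, 12, 16 and 14 genes against Ctl and by 17, 20, 13 and 10 against WI, in the order above. Of all identifiers 21.4%, 16.2%, 16% and 17.7% reached it against Ctl and 15%, 11.4%, 16.9% and 16.4% against WI.

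**Figure D2:**
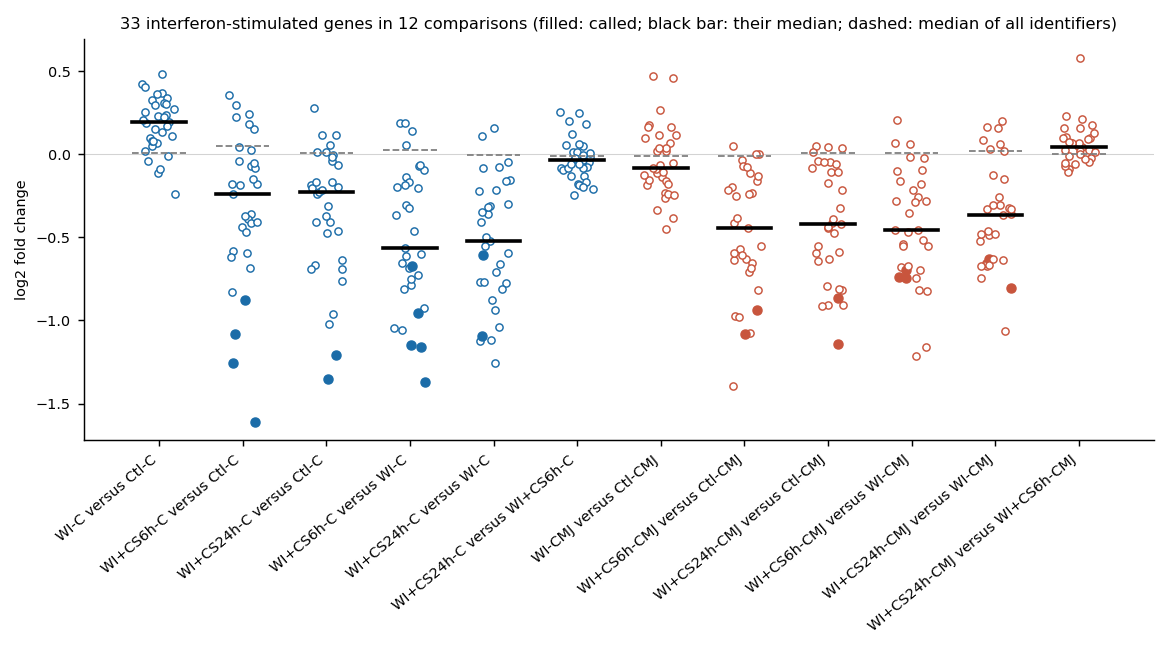
Log2 fold change (y axis) of the 33 genes, 1 circle per gene, in 12 comparisons (x axis; cortex blue, CMJ red), with called genes filled, the median of the 33 as a black bar and the median of all identifiers dashed. The black bars lie between -0.56 and -0.23 in the 8 comparisons of cold storage with Ctl or WI and between -0.08 and 0.19 in the other 4.

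Warm ischemia alone was not followed by a call in the set. In cortex 28 of 33 genes were higher in WI than in Ctl, with a median log2 fold change of 0.19 (0.07 without Ctl-C array 4 and 0.32 without Ctl-C array 5), and 3 of them (IFITM1, IRF7 and TRIM21) had an unadjusted p under 0.05. With arrays normalized within each group the median was 0.02, while that of all identifiers moved from 0.01 to -0.13. In CMJ 14 of 33 were higher, and the median of -0.08 became -0.16 without WI-CMJ array 2 and turned to 0.06 without Ctl-CMJ array 5. There the genes with an unadjusted p under 0.05 were IFITM1, higher, and GBP2 and IFIT2, lower. Over all identifiers 0.0946% were called in cortex and 0.687% in CMJ, and 4.89% and 12.3% had an unadjusted p under 0.05.

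Between 6 h and 24 h of storage 0 of 33 genes were called in either tissue, with 0 genes at an unadjusted p under 0.05, and the log2 changes ran from -0.25 to 0.26 in cortex and from -0.11 to 0.58 in CMJ. The share called over all identifiers was 0% and 0.00278%, and 3.11% and 3.44% had an unadjusted p under 0.05. Both times were sampled from the same kidneys, which these tests leave out. A fit of the 6 h and 24 h arrays alone with the number as a replicate block, added after the data were seen, also gave 0 calls in each tissue. In CMJ it gave an unadjusted p under 0.05 for IFIT1 (0.23 higher at 24 h, SE 0.05) and SP110 (0.16, SE 0.05), each higher in 5 of 5 pairs and both with an adjusted p of 0.89, where 4.79% of identifiers had one. In cortex it did so for 0 genes, where 1.74% of identifiers had one. SP110 in CMJ, at 7.73 to 7.78 and then 7.80 to 8.03, was the 1 gene of the set whose arrays did not overlap between the times, as held for 0.256% of identifiers in the same direction.

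The difference between tissues in the change against Ctl was tested as an interaction over all 40 arrays. It was called for 0 genes of the set for WI, WI+CS6h and WI+CS24h, with 0 at an unadjusted p under 0.05 where 1.98%, 5.17% and 2.58% of all identifiers were. The share of identifiers called was 0% in each. Averaged over the 4 conditions, 26 of 33 genes were higher in CMJ than in cortex (median 0.07), 0 were called where 1.39% of identifiers were, and OAS1 (0.39) and MX2 (0.25) had an unadjusted p under 0.05, as 14.4% of identifiers did.

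These between-tissue tests treat cortex and CMJ arrays as separate samples. A fit that compares the tissues within arrays of the same condition and number, as a replicate block across tissues, was added after the data were seen. It too gave 0 calls in each of the 4 tests. Averaged over the conditions, BST2 (0.27, adjusted p = 0.017), OAS1 (0.39, adjusted p = 0.027) and TAP1 (0.19, adjusted p = 0.038) passed the adjusted p without reaching the minimum fold change. An unadjusted p under 0.05 was reached there by 11 of 33 genes, as by 19.5% of identifiers, and in the 3 interactions by 5, 5 and 1 genes, as by 3.05%, 7.61% and 4.33% of identifiers. The numbers are not stated to pair the tissues, and deviations of same-numbered arrays correlated at 0.11 to 0.66 in WI and the cold-stored groups but at -0.21 to 0.21 in Ctl.

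ISG15, the ubiquitin-like modifier (AK350112), came close to a call. Its log2 intensity in Ctl-CMJ was 10.79, 10.25, 10.67, 9.55 and 11.10, against 9.46, 9.55, 9.39, 9.01 and 9.57 at 6 h, a log2 fold change of -1.07 (SE 0.30, adjusted p = 0.054). Ctl-CMJ array 4 lay among the cold-stored arrays, and without it ISG15, IFIT1 and ZBP1 were called in this comparison, which then held 5 called genes in place of 2. The other ISG15 identifier, NM_001128469, was called in the same comparison (-1.12, adjusted p = 0.038).

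IFIT1, ZBP1 and CMPK2 were not called. IFIT1, which binds viral RNA lacking a host cap, had -0.64 in WI+CS6h-CMJ against Ctl-CMJ (adjusted p = 0.067). ZBP1, a sensor of left-handed nucleic acid that can start necroptosis, had -0.60 in the same comparison (adjusted p = 0.065), with Ctl at 2.02 to 2.93 and the 6 h arrays at 1.52 to 1.99. These ZBP1 values average a probe that was well above background on 39 arrays (A_72_P345118, mean 3.87) and one that was on 0 (A_72_P440576, mean 0.31). CMPK2, a mitochondrial nucleotide kinase, ranged from 5.44 to 7.24 in Ctl-CMJ and from 5.10 to 5.96 at 6 h, so the groups overlapped.

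A transcription factor, an RNA sensor and a peptide transporter were lower than WI without being called. In cortex against WI at 24 h, the transcription factor IRF1 had a log2 fold change of -0.50 (adjusted p = 0.094) and the RNA-binding helicase DHX58 of -0.66 (adjusted p = 0.11), both with groups that did not overlap. TAP1, a subunit of the peptide transporter for MHC class I, read 5.82, 6.55, 6.28, 6.44 and 5.82 in WI-C and 5.57, 5.76, 5.53, 5.41 and 5.39 at 6 h. Its log2 fold change was -0.65 (adjusted p = 0.079), and the lowest WI arrays were just above the highest cold-stored one.

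The 13 genes not described one by one were never called. Their log2 fold changes ran from -0.81 to 0.36 in the cortex comparisons of cold storage with Ctl or WI and from -0.65 to 0.21 in those of CMJ, and their lowest adjusted p in any of these was 0.15. SP110, a nuclear body protein, gave opposite readings by identifier. The slightly dimmer SP110 identifier AK343570 was called higher in 6 comparisons by 0.52 to 0.74, and the brighter AK234674 was never called, with -0.22 in WI+CS6h-CMJ against Ctl-CMJ. Their means were 7.61 and 7.86, and both were well above background on 40 arrays. A second, dim TRIM21 identifier, ENSSSCT00000035074, above background on 18 of 40 arrays, was called lower in 3 comparisons.

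Single arrays showed how much the set varied between kidneys of 1 group. The level of an array was taken as the median, over the 32 detected genes, of the log2 difference from each gene's mean over 40 arrays. Ctl array 5 had the highest level of Ctl in both tissues (0.46 in cortex, 0.78 in CMJ), and Ctl array 4 had the lowest (-0.35 and -0.11). In WI, arrays 2 (0.53 and 0.64) and 4 (0.56 and 0.50) were high and array 5 was low (-0.15 and -0.10).

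In Ctl and in WI-CMJ 1 array held the highest value for most genes. Ctl-C array 5 held the highest value of its group for 25 of 32 genes and Ctl-CMJ array 5 for 31 of 32, while array 4 held the lowest for 25 and 21. WI-CMJ array 2 was highest for 26 of 32. In the other groups the highest values were divided: WI-C array 2 held 16 and array 4 held 11, and in WI+CS6h-C array 2 held 12 and array 5 held 13. The 20 arrays not cold-stored ranged in level from -0.35 to 0.78, with a median of 0.13, and the 20 cold-stored arrays from -0.44 to 0.04, with a median of -0.15. The former come from 10 kidneys and the latter from 5. Ctl arrays 2 and 4 and WI array 5 thus lay within the range of the cold-stored arrays in both tissues. WI array 3 did so in CMJ only (0.02).

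**Figure D3:**
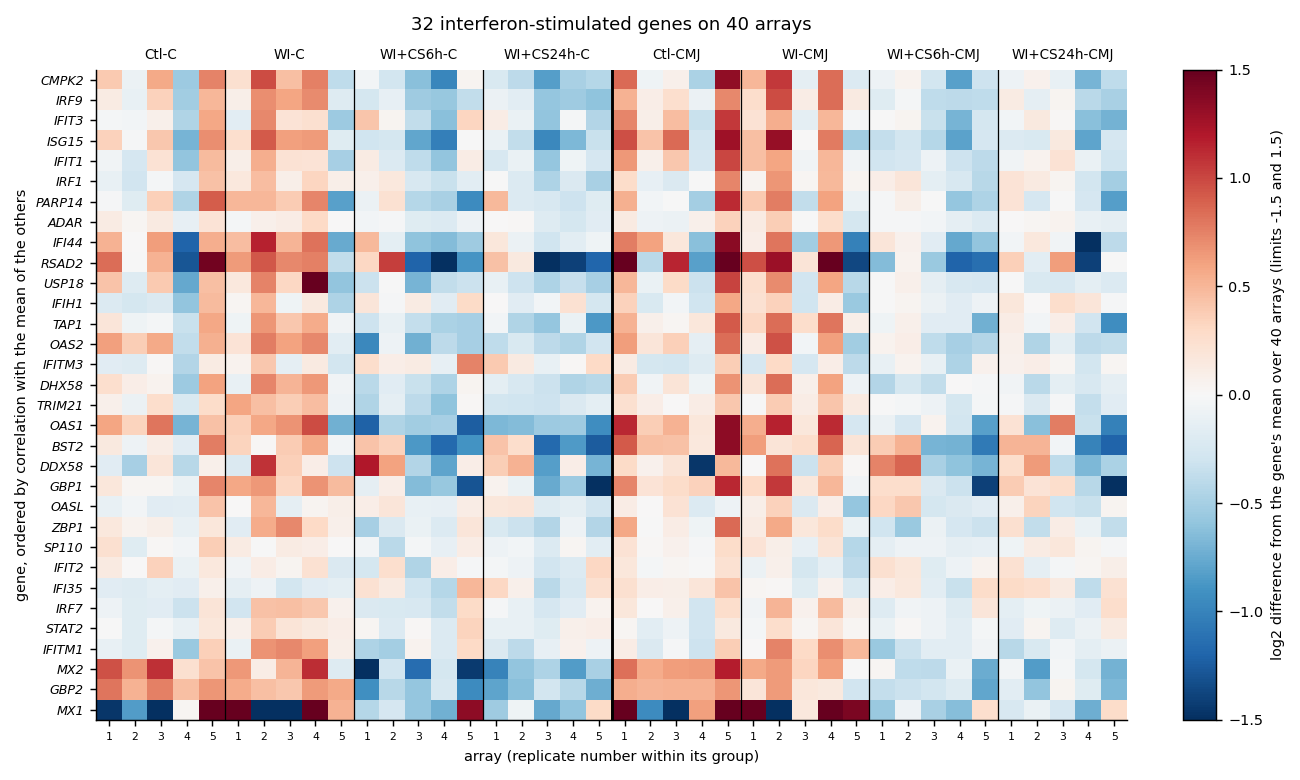
Log2 difference of each of 32 genes (rows) from its own mean over 40 arrays (columns, by group and replicate number; red higher, blue lower, colour limits -1.5 and 1.5), with genes ordered by correlation with the mean of the others. Ctl arrays 5 and WI arrays 2 and 4 are red for most genes, and GBP2 and MX2 are blue in the cold-stored cortex groups.

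**Figure D4:**
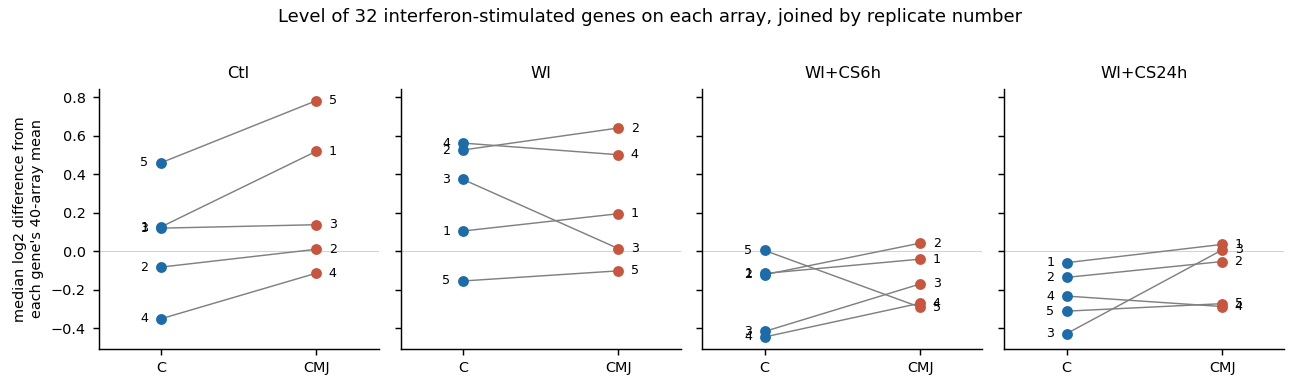
Median log2 difference of the 32 genes from their 40-array means (y axis) for each cortex and CMJ array (x axis), with arrays of the same replicate number joined within a condition. Among the Ctl arrays number 5 lies highest and number 4 lowest in both tissues, and the cold-stored arrays lie between -0.44 and 0.04.

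Arrays with the same number moved together in cortex and CMJ. After removal of group means, the median correlation between tissues over 20 numbered pairs was 0.67 for the 32 genes (range 0.10 to 0.89), and 24 of them exceeded 0.5. Over the 21743 identifiers detected likewise it was 0.28, and 29.9% exceeded 0.5. Between 6 h and 24 h, which the labels tie to the same kidneys, the median was 0.68 for the set and 0.28 for all, over 10 pairs. These values describe arrays that share a number, and no test was made of them.

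The genes also varied together over the arrays. After removal of group means, the mean correlation over the 496 pairs of the 32 genes was 0.47 on 40 arrays, 472 pairs were above 0, and the mean over pairs of all identifiers was 0.0022. CMPK2 (0.94) and IRF9 (0.92) followed the mean of the others most closely. GBP2 (0.22), MX2 (0.33) and the MX1 identifier (0.11; 0.03 for its brightest probe) followed it least, so GBP2 and MX2, called in the most comparisons, were among the genes farthest from the shared variation. MX2 correlated with OAS1 at 0.75 and with GBP2 at 0.71.

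Genes that lie next to each other in the pig genome, by the order of the RefSeq gene table of Sscrofa11.1, did not always vary together. OAS1 and OAS2 correlated at 0.80, RSAD2 and CMPK2 at 0.81 and IFIT1 and IFIT3 at 0.89 over the 40 arrays after removal of group means. GBP1 and GBP2 correlated at 0.50, IFIT2 and IFIT3 at 0.36, and MX2 with the MX1 identifier at 0.03 and with the brightest MX1 probe at 0.07.

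Outside the set, the identifiers closest to its mean over the 40 arrays, of 6655 with a symbol, were PROM1 (0.84), XCL1 (0.84), ISG12(A) (0.83) and B2M (0.81), the light chain of MHC class I. A second PROM1 identifier (0.80), PKR (0.80), DIS3 (0.79) and MYLIP (0.79) came next. ISG12(A) and PKR are themselves interferon targets, and PKR is the array's name for EIF2AK2, which belongs to the 44 symbols and was not found under that symbol. All of these arrays share their slides and normalization.

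MX1 spread widely between kidneys in Ctl and WI. Its brightest probe read 9.18, 9.52, 8.55, 10.38 and 11.67 in Ctl-C and 11.07, 9.81, 7.99, 10.92 and 12.14 in Ctl-CMJ. In WI-C it read 11.19, 7.91, 8.09, 11.49 and 10.38, and in WI-CMJ 11.36, 8.53, 10.20, 11.59 and 10.43. Within these 4 groups the highest array exceeded the lowest by 8.31-fold to 17.8-fold. The SD of the probe was 1.21 to 1.71 there, against 0.52 to 1.24 for RSAD2, and 0.24 to 0.32 in the cold-stored groups, where RSAD2 had 0.51 to 1.18.

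The 20 cold-stored arrays lay between 9.56 and 10.42, a range of 1.81-fold, inside the 18.7-fold range of the 20 others, which come from more kidneys. The MX1 identifier was not called in any comparison. Arrays of the same number differed between tissues by at most 0.67 on the log2 scale, other than Ctl 1 (1.89) and WI 3 (2.11). MX1 followed the level of the set on some arrays only. Ctl array 5 and WI array 4 were high for the set and held the highest MX1 value of their groups in both tissues, whereas WI array 2 was high for the set and held the lowest.

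BST2, which encodes tetherin, a protein that holds budding virus at the cell surface, fell into separate levels among the cold-stored arrays. In WI+CS6h-C it read 7.98, 7.89, 6.69, 6.38 and 6.65, and in WI+CS6h-CMJ 7.93, 8.07, 6.86, 6.84 and 6.49. At 24 h it read 7.97, 7.81, 6.39, 6.71 and 6.30 in cortex and 8.06, 8.06, 7.51, 6.55 and 6.35 in CMJ. Arrays 1 and 2 lay within the range of Ctl and WI (7.38 to 8.89) in all 4 groups, and arrays 3 to 5 lay below that range, apart from array 3 in CMJ at 24 h. BST2 was not called in any comparison.

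GBP1, a second guanylate-binding GTPase, was lowest on array 5 in all 4 cold-stored groups. It read 7.74, 7.97, 7.22, 7.31 and 6.58 in WI+CS6h-C and 7.93, 7.77, 7.12, 7.33 and 6.26 in WI+CS24h-C, and array 5 read 6.47 and 6.16 in CMJ. The comparison of cortex with WI gave non-overlapping groups and -1.05 and -1.13, with adjusted p of 0.058 and 0.053. On the 4 cold-stored arrays with number 5 the summed intensity of 9 proximal tubule markers was 83067 to 92047, against 124869 to 186673 on the 36 other arrays, and its part in the GBP1 values was not tested.

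**Figure D5:**
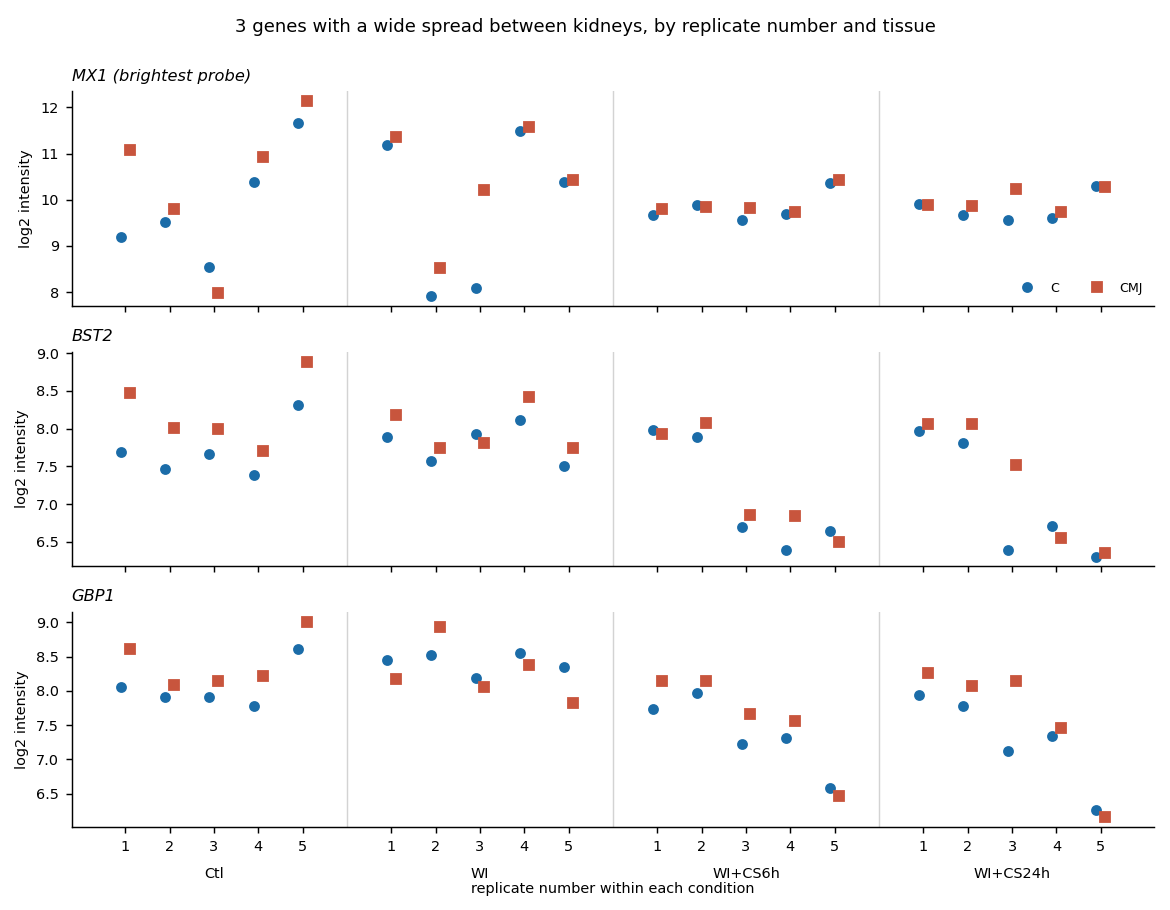
Log2 intensity (y axis) of the brightest MX1 probe, BST2 and GBP1 by replicate number within each condition (x axis), cortex as blue circles and CMJ as red squares. MX1 spans 7.91 to 12.14 in Ctl and WI and 9.56 to 10.42 in the cold-stored groups, BST2 is higher on cold-stored arrays 1 and 2 than on 3 to 5, and GBP1 is lowest on cold-stored arrays 5.

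RSAD2, the gene of viperin, and IFI44, a cytoplasmic protein of uncertain role, were dim and variable. RSAD2 was well above background on 34 arrays by its brighter probe and on 5 by the other, and their average read 4.34, 2.43, 3.98, 2.03 and 4.88 in Ctl-CMJ and 2.19, 2.89, 2.27, 1.63 and 1.71 at 6 h, a log2 fold change of -1.39 (adjusted p = 0.23) with overlapping groups. IFI44 was well above background on 32 arrays, and DDX58, the RNA sensor RIG-I, ranged from 2.43 to 5.09 over all 40. In WI+CS6h-C, DDX58 read 5.09, 4.50, 3.45, 3.10 and 3.99, so arrays 1 and 2 were the highest of that group for DDX58 as for BST2.

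The spread between kidneys was wider for the set than for the array as a whole before cold storage. The median SD of the 32 genes was 0.35 in Ctl-C, 0.37 in WI-C, 0.38 in Ctl-CMJ and 0.33 in WI-CMJ, against 0.20, 0.24, 0.21 and 0.17 over all 21743 detected identifiers. After cold storage it was 0.32 and 0.21 in cortex and 0.24 and 0.28 in CMJ, against 0.36, 0.30, 0.23 and 0.26. In WI+CS24h-C, 24 of 32 genes had a smaller SD than in Ctl-C, and in WI+CS6h-C 17 did. In CMJ 25 of 32 had a smaller SD at 6 h than in Ctl-CMJ, and 23 did at 24 h.

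The other genes of the pathway were read from a separate list. Of 61 further interferon pathway genes (ligands, receptors, sensors, signalling, chemokines and antigen presentation), 44 were found and 5 were called at least once. In cortex 1 of 44 was called at 24 h against Ctl and 1 at each time against WI, where 1.2% to 2.5% of all identifiers were called, and 0 at 6 h against Ctl. In CMJ 3 of 44 were called against Ctl at each time and 3 and 1 against WI, where 2.78% to 3.65% of identifiers were. IFNA1 and IFNB1, type I interferons, were well above background on 1 array each and IFNE on 0, and IFNG, the type II interferon, on 20 of 40.

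IFNGR2, a chain of the type II receptor, was lower in 4 comparisons. It read 7.65 to 7.95 in Ctl-CMJ and 6.98 to 7.22 at 6 h (log2 fold change -0.70, SE 0.11, adjusted p = 0.0013), with no overlap. TLR7, an endosomal sensor of RNA, was lower in all 4 CMJ comparisons of cold storage, from -1.28 to -1.11. Its 6 h CMJ arrays read 2.88 to 3.50 on arrays 1 to 4 and 4.73 on array 5, so array 5 stayed in the range of Ctl (4.33 to 5.21).

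CXCL10, an interferon-induced chemokine for T cells, was lower in cortex against WI by -1.39 at 6 h (adjusted p = 0.035) and -1.43 at 24 h (adjusted p = 0.040). Its WI-C arrays read 10.46, 10.38, 9.66, 10.45 and 10.41 and the 24 h arrays 9.46, 9.39, 8.46, 9.09 and 7.81. SOCS3, an inhibitor of cytokine signalling, was the only gene of this list called higher, in CMJ against Ctl, by 0.84 at 6 h and 0.79 at 24 h (adjusted p = 0.029 and 0.037). IRF2, which can repress interferon targets, was lower in WI+CS6h-CMJ against WI-CMJ (-0.66, adjusted p = 0.013), with 4 arrays in each group because outlier spots were missing.

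Markers of the cell types present in kidney samples were read beside the set. Of 26 leukocyte markers 19 were found, 0 were called in any comparison and their median log2 fold changes lay between -0.10 and 0.08 in the 12 comparisons within a tissue. Their summed intensity was 19552 to 24246 in Ctl-C, 21812 to 24438 in WI+CS6h-C, 22881 to 24067 in Ctl-CMJ and 20741 to 26695 in WI+CS6h-CMJ, so the groups overlapped. This sum mostly reads GNLY, whose mean log2 intensity was 14.21, against 11.01 for the next brightest marker, CD79A. In bulk tissue, fewer cells of a type and less RNA per cell cannot be told apart.

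Other marker lists moved in places. The 1 erythrocyte marker found, the globin gene HBB, was dim, well above background on 24 of 40 arrays, and was called in no comparison. Its intensity was 1.23 to 7.23 in Ctl-C, 11.8 to 24.5 in WI-C and 1.05 to 28.6 in WI+CS6h-C. The log2 fold change was 2.59 in WI-C against Ctl-C (unadjusted p under 0.05) and 1.59 in WI-CMJ against Ctl-CMJ, and it was -2.01 in cortex and -1.61 in CMJ at 6 h against WI. In cortex these signs were those of the median of the set. Against Ctl-C, HBB was higher at 6 h (0.58) and at 24 h (1.32), where the set median was lower (-0.24 and -0.23). The signs also differed in WI-CMJ against Ctl-CMJ, where the set median was -0.08.

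The 10 markers of the loop and medulla found had median log2 fold changes of 0.29 at 6 h and 0.38 at 24 h in cortex against Ctl. HSD11B2, a steroid dehydrogenase of the distal nephron, was called higher at both times there and SCNN1G, a sodium channel subunit, at 6 h. In CMJ against Ctl, SCNN1G was called higher at both times and HSD11B2 at 24 h, with list medians of -0.15 and -0.05. SCNN1G was also called higher against WI at both times in CMJ. AQP3, a water channel of the collecting duct, was called lower against WI at both times in both tissues. The 7 adipocyte markers had a median of 0.29 in WI+CS6h-C against Ctl-C, with LPL called higher, and of -0.42 in WI+CS6h-CMJ against WI-CMJ, with CFD called lower. In WI-CMJ against Ctl-CMJ the list medians were 0.48 for adipocyte, 0.30 for endothelial and 0.20 for proximal tubule markers. That of loop and medulla was -0.06 there, and no marker of these lists was called. KDR, an endothelial receptor, was called higher in CMJ against Ctl at both times (list medians 0.02 and 0.07), and so was SLC22A8, a transporter of the proximal tubule, at 6 h (list median 0.21). The part of these shifts in the changes of the interferon-stimulated genes was not tested.

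Symbols without a spot under the rule were IFIT5, IFI6, IFI44L, HERC5, HERC6, EIF2AK2, SAMHD1, XAF1, UBE2L6, LGALS3BP and RTP4. Through RefSeq accessions EIF2AK2, SAMHD1 and IFIT5 could be read under other names, outside the rule, and were not called in any comparison. An identifier matched to ISG20 in the same way, TC567770, was well above background on all 40 arrays and was lower in WI+CS6h-C against WI-C by -1.17 (adjusted p = 0.041).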

How the data were processed

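RNA of 40 kidney samples was measured on Agilent single-color arrays, and the scanner intensity values the authors deposited per array (Feature Extraction's processed signal) were used. The submitters' processing notes name Feature Extraction 11.5.1.1, R 2.15.2 and limma. A log2 matrix that the authors also deposited, whose values matched the quantile-normalized log2 median signal within 1e-08 for 99.98% of values of identifiers with 1 spot, served as an alternative. Here intensities were taken to log2, outlier spots were set missing, the 40 arrays were quantile normalized together and spots were averaged by identifier. Each tissue was fitted with limma 3.58.1 (lmFit, eBayes; R 4.3.3), 20 arrays and 4 groups per fit, and between-tissue differences over 40 arrays. Scripts were tested on simulated data. Genes were named if called, if among the 6 with the largest residual SD, or by lowest p until 20 were named. The genes and lists were chosen with earlier results of these data known. Alternatives were 75th percentile scaling, quantiles within each group, a filter on dim identifiers, normexp (offset 50), the deposited matrix, the brightest probe, a replicate block, a slide block, omission of each array and, chosen after seeing the data, outlier spots kept, a block across tissues and a block over the 6 h and 24 h arrays alone. The same 5 kidneys gave the 6 h and 24 h samples, per the labels. Same-numbered deviations at 6 h and 24 h correlated at 0.59 to 0.84 in CMJ and -0.42 to 0.62 in cortex. No reference sequence was used, and genes were located only by their neighbours in the RefSeq table. Figures were drawn with matplotlib 3.10.9.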

Additional observations from a re-analysis of the deposited data

Results flagged for a closer look

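Among 160 pairs of a named gene and a group, 6 held an array whose gap to its nearest neighbour exceeded Dixon's critical value (0.71 for 5 arrays), where chance gives about 1 in 20. Ctl array 4 was low for OAS2 in cortex (6.28, nearest 7.02) and for DDX58 in CMJ (2.43, nearest 3.95). WI-C array 5 was low for RSAD2 (2.47, nearest 3.47). In WI+CS6h-CMJ, GBP2 was low on array 5 (7.92, nearest 8.33) and TRIM21 on array 4 (4.64, nearest 4.83). The MX1 identifier was high on WI+CS6h-C array 5 (8.45, nearest 6.86), an array on which the dim probe A_72_P487406 was missing, and the brightest MX1 probe there read 10.37 against 9.57 to 9.89 on the other 4 arrays.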

How the results depend on the processing

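Over 9 alternatives, 159 of 198 checks of the 22 calls were kept and 39 were lost, with 0 reversed. Normexp and slide as a block each ended 14, the deposited matrix and the brightest probe 4 each, the replicate block 2 and 75th percentile scaling 1, while within-group quantiles, the dim filter and kept outlier spots ended 0. The causes were not tested. For ZBP1 and RSAD2 the dimmer of 2 probes was near background (well above it on 0 and 5 arrays), which limits what their average can show.

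The number of called genes changed by more than 1.5 times as follows. In cortex at 6 h, normexp gave 1 against Ctl, and against WI the deposited matrix gave 3 and the slide block 0. There the dim filter gave 7 in place of 5 and normexp 4, of which 2 were among the 5. In cortex at 24 h against Ctl, within-group quantiles gave 4, normexp 1 and the slide block 1. In cortex at 24 h against WI, the dim filter gave 7, while normexp, the deposited matrix and the slide block gave 1 each. In CMJ at 6 h against Ctl, the dim filter gave 5, the brightest probe 4 and normexp 1, and against WI normexp gave 1 and the slide block 0 (dim filter 4 in place of 3). In CMJ at 24 h, normexp gave 1 against Ctl and 0 against WI, and the slide block 0 against Ctl and 1 against WI (dim filter 3 in place of 2). Over all identifiers, normexp left 263 of 1445 calls in cortex at 6 h against Ctl, and the slide block 7 of 692 at 6 h against WI. Within-group quantiles shifted the median of all identifiers by over 0.1 in places, to 0.17 in that last comparison.

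The replicate block gave 1 call (GBP2) in cortex at 24 h against WI in place of 2 and ended the IRF9 call. Between 6 h and 24 h it gave 0 calls in both tissues, also with those arrays alone, as did the block across tissues in the 4 between-tissue tests.

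Without 1 array, 13 of the 22 calls always held. Counts ran from 2 to 4 against Ctl-C at 6 h, with 2 without array 1 or 3 of Ctl-C or WI+CS6h-C. They ran from 2 to 4 at 24 h, where OAS1 and OAS2 were added without Ctl-C array 4. Against WI-C they ran from 3 to 6 at 6 h, with 3 without WI-C array 3 or 4 or WI+CS6h-C array 1, and from 1 to 6 at 24 h, where the 6 without WI-C array 5 were GBP2, IRF9, MX2, OAS1, OAS2 and TRIM21, and 1 was left without array 2, 3 or 4 of either group. In WI-CMJ against Ctl-CMJ they ran from 0 to 1 (IFITM1, without WI-CMJ array 1). Against Ctl-CMJ they ran from 2 to 5 at 6 h, the highest without Ctl-CMJ array 4, and from 2 to 3 at 24 h. Against WI-CMJ they ran from 1 to 4 at 6 h, with 1 without WI-CMJ array 2 or 4 or WI+CS6h-CMJ array 3 or 5, and from 0 to 2 at 24 h, with 0 without WI-CMJ array 2 or 4. In the other comparisons they were 0.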
